A study of Mus musculus with 6 samples.

Results

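Wnt ligands and the proteins that tune them outside the cell were examined in choroid plexus, as 10 named genes: Wnt5a, Wif1, Sfrp1, Sfrp2, Frzb, Dkk2, Dkk3, Sostdc1, Rspo3 and Axin2. They were chosen by name, as the rows of the deposited array table whose single gene symbol is one of these, which gave 22 probe sets for 10 of the 18193 genes with a single symbol. Of these probe sets 15 passed the filter on dim signals described below and 7 did not. A probe set is the group of short oligonucleotides on the array that reports 1 transcript. Axin2 is the exception in the group, since it acts inside the cell. The choroid plexus hangs in the ventricles and its epithelium secretes cerebrospinal fluid. This epithelium had been prepared from whole brain of B10.PL mice, either wild type (WT, 3 arrays) or RAG-/- (3 arrays). RAG-/- mice lack a recombinase gene, without which lymphocytes do not mature. Which of the RAG genes was disrupted is not stated in the labels, and neither are age, sex or pooling. Nothing in them says that the preparations came from separate animals, so p-values measure only the spread between these arrays, and that spread may be technical.

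Wnt proteins are secreted, lipid-modified ligands that bind Frizzled receptors and the co-receptors Lrp5 and Lrp6. In the canonical branch this stabilises beta-catenin, which enters the nucleus and acts with TCF and LEF factors on target genes. Secreted antagonists bind either the Wnts themselves (Wif1, the Sfrp proteins, Frzb) or the co-receptors (Dkk2, Sostdc1), and R-spondins raise the number of receptors at the surface. The choroid plexus itself arises beside a source of Wnt signals at the dorsal midline of the developing brain.

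Titles and descriptions of the arrays disagree. A code in the titles joins 1 array of each genotype into 3 pairs. In pair 1 the descriptions say that the samples were reversed, so the title of WT replicate 1 names it RAG and the title of RAG-/- replicate 1 names it wild type. Each array is named here by its description, and each difference is given by description and then by title, which exchanges the arrays of pair 1. Rag1 gave no check of either. It was dim, at the 27.1 percentile, and measured 6.54, 4.16 and 4.35 in WT replicates 1 to 3 and 4.60, 6.92 and 6.31 in RAG-/- replicates 1 to 3 on the log2 scale, so its mean was higher in RAG-/- under either reading, and by title all 3 RAG arrays lay above the others. Rag2, as dim at the 26.2 percentile, had group means that differed by 0.05 by description and -0.68 by title, and the groups overlapped in both. All levels here are log2(intensity + 16) after quantile normalization.

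The tissue label was checked against marker genes. Ttr, the thyroid hormone carrier of this epithelium, lay between 14.69 and 14.83 in the 6 arrays, and the mean of 20 epithelial genes lay between 11.91 and 12.98. Ttr was near the top of the scale, so its small spread does not measure purity. Markers of other cells were present too, some of them nearly as bright. Mbp, of oligodendrocytes, lay between 14.20 and 14.81, and Aldoc, of astrocytes, between 11.94 and 14.63. The mean of 20 stromal genes, led by the fibroblast proteoglycan Ogn, ran from 8.58 to 11.19, and the mean of 10 neuronal genes from 9.13 to 12.34. RAG-/- replicate 2 stood apart, with the lowest epithelial and stromal means and the highest neuronal mean, at 106 on the first principal component where the other arrays lay between -69.3 and 31.2. Xist, the RNA made from the inactive X chromosome of female cells, measured 12.88, 12.95 and 13.19 in WT and 9.04, 12.20 and 7.43 in RAG-/-, so RAG-/- replicates 1 and 3 were below all others. The part of this in the members' values was not tested. In such bulk samples, fewer cells of a type and less RNA per cell cannot be told apart.

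Promoter sequences were available for 5 of the 10 members. The 250 bases before the start of 4 of them are shown, because Wif1 was the member whose genotype groups did not overlap by description, Frzb and Dkk2 were those that varied most between arrays, and Axin2 is the member known as a direct beta-catenin target. They are RefSeq sequences of build GRCm38.p6, read 5′ to 3′ on the gene's strand: Wif1 at chr10:121033754-121034003 (plus strand), Frzb at chr2:80447397-80447646 (minus strand), Dkk2 at chr3:132085042-132085291 (plus strand) and Axin2 at chr11:108920099-108920348 (plus strand). Capitals mark matches, on either strand, to TATAAA (the TATA box core), CTTTGA (the beginning of the motif bound by TCF and LEF factors), CACGTG (an E-box), GGGCGG (a GC box) and CCAAT.
Wif1: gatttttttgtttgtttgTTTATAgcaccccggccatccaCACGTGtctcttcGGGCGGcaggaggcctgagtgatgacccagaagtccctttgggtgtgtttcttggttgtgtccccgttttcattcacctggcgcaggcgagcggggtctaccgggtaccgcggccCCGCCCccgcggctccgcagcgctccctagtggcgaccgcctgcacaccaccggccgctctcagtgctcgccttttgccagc
Frzb: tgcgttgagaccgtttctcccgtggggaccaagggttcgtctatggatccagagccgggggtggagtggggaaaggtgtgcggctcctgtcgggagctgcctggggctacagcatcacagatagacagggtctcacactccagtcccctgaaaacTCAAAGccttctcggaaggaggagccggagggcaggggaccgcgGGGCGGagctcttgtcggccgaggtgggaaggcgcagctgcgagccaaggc
Dkk2: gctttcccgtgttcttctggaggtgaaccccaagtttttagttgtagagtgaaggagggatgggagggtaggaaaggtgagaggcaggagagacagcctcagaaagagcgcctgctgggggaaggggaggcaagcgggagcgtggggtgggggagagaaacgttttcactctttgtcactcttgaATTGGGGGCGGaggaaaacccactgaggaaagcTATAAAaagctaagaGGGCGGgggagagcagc
Axin2: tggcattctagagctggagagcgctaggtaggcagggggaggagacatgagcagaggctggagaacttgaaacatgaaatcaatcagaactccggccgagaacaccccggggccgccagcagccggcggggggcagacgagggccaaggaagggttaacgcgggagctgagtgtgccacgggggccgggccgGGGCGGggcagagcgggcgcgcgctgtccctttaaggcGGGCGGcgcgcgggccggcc

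Dkk2 held a TATAAA that began 32 bases before the start, and Wif1 one on the opposite strand 232 bases before it, where 12.4% of 32851 promoters of this length held the motif. Frzb held CTTTGA, on the opposite strand, 95 bases before its start (13.8% of all promoters). The letters CTTTGA were not in the windows of Wif1, Dkk2, Axin2 or Sfrp2. Wif1 held the only CACGTG among the 5, 210 bases before the start (6.02% of all). The GC box was in Wif1, Frzb, Dkk2 and Axin2 and in 32.7% of all promoters, and the CCAAT box, which in Dkk2 ends where a GC box begins, was in 33.8% of all. Such matches describe letters and not binding.

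The members sat at very different places within the arrays. The percentile of a probe set among all others of its array depends on the oligonucleotides as well as on the transcript, so it places a probe set within its array and does not order the genes. Sostdc1 was among the brightest of all, at the 98.1 to 99.8 percentile in the 6 arrays. The brightest probe sets of Sfrp1 (81.9 to 92.4), Axin2 (78.5 to 86.5), Dkk3 (71.6 to 86.6), Wnt5a (68.2 to 76.9) and Rspo3 (63.1 to 86.8) lay in the upper part of every array. Wif1 (32.8 to 62.9) and Frzb (26.2 to 69.8) were dim. Sfrp2 (22.1 to 53.7) and Dkk2 (3.1 to 54.8) fell below the filter that set aside the lowest 40% of probe sets by mean, so these 2 members are described and were not tested, while the other 8 were.

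By description, 0 of the 8 tested members passed limma's test with Benjamini-Hochberg adjustment over all probe sets (each adjusted p = 1). Among all probe sets on the arrays, 0 of 27022 passed (0%), and 192 had an unadjusted p under 0.05 (0.711%), among them 1 of the 8 members. All 8 members had a lower mean in RAG-/-, with a median difference of -0.33 log2 units, where 51.1% of the 13537 genes tested were lower and their median was -0.01. By title 0 members passed either, 4 were lower and 4 higher, with a median of -0.19, beside 53.9% lower and a median of -0.02 over all genes. By title 332 probe sets had an unadjusted p under 0.05 (1.23%). At the brightest probe set of each gene, 187 of the 13537 genes tested and 0 of the 8 members had. Dimmer Sfrp1 probe sets had unadjusted limma p-values of 0.0327 and 0.0492 by title. With the pair as a block 0 members passed as well, where by description 0% and by title 0.0037% of all probe sets did (1 probe set of Pttg1). The 8 of 8 therefore belongs to the reading by description. It was 6 of 8 without RAG-/- replicate 2, 7 of 8 with pair 1 left out and 5 of 8 with array weights, and these settings for the count were chosen after seeing the data. The stromal markers moved with it: 20 of 20 were lower in RAG-/- by description, with list means from 9.87 to 11.19 in WT and from 8.58 to 9.97 in RAG-/-. By title 12 of 20 stromal markers were lower. Of the epithelial markers 19 of 20 were lower under both readings, with means by description from 12.71 to 12.88 in WT and from 11.91 to 12.98 in RAG-/-. The 11.91 was that of RAG-/- replicate 2, a RAG array under both readings. RAG-/- replicates 1 and 3 were at 12.98 and 12.79, above their WT partners at 12.71 and 12.72. Of the endothelial markers 9 of 9 were lower by description and 8 by title, and of the mural markers, of cells that wrap small vessels, 9 of 10 and 3. The oligodendrocyte markers were higher in 11 of 11 under both readings, with means from 9.78 to 10.55 in WT and from 10.08 to 11.70 in RAG-/- by description. The part of these markers in the members' values was not tested.

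**Figure D1:**
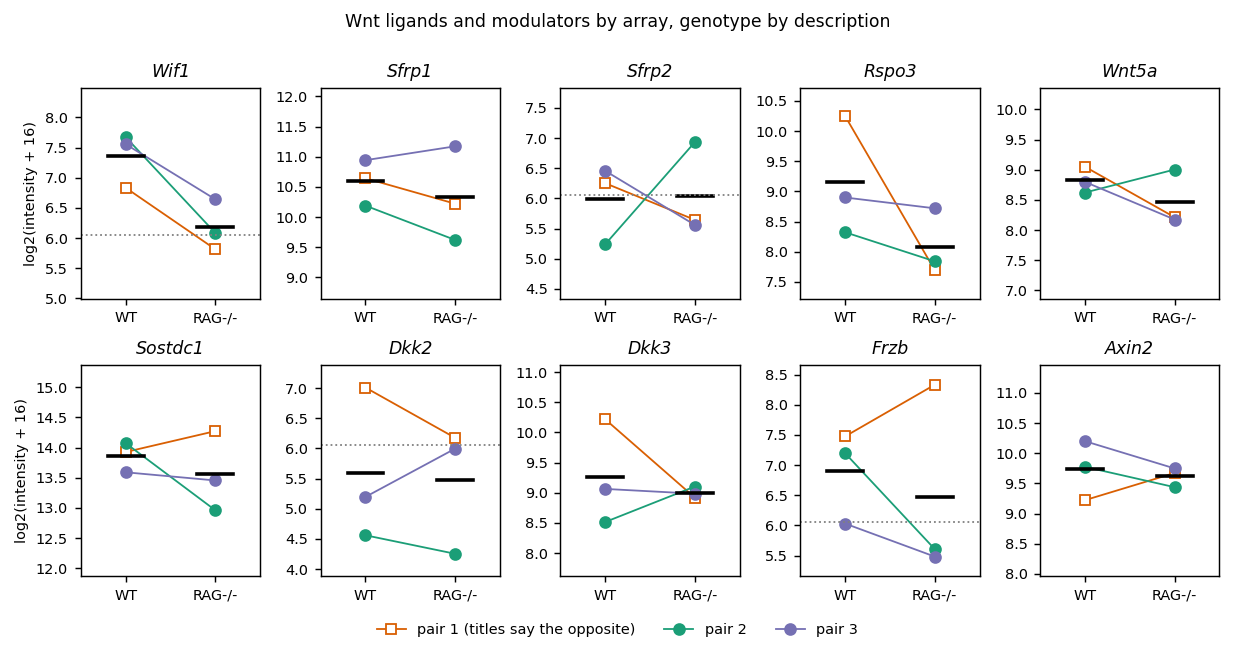
Level of each member at its brightest probe set, log2(intensity + 16), in WT and RAG-/- by description; lines join the arrays of a pair, open squares are pair 1, black bars are group means (n = 3) and the dotted line is the filter of 6.06, drawn where it falls in the panel. Every panel spans the same height; Wif1 and Rspo3 are lower in RAG-/- in all 3 pairs, and only in the panel of Wif1 do the groups not overlap.

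**Figure D2:**
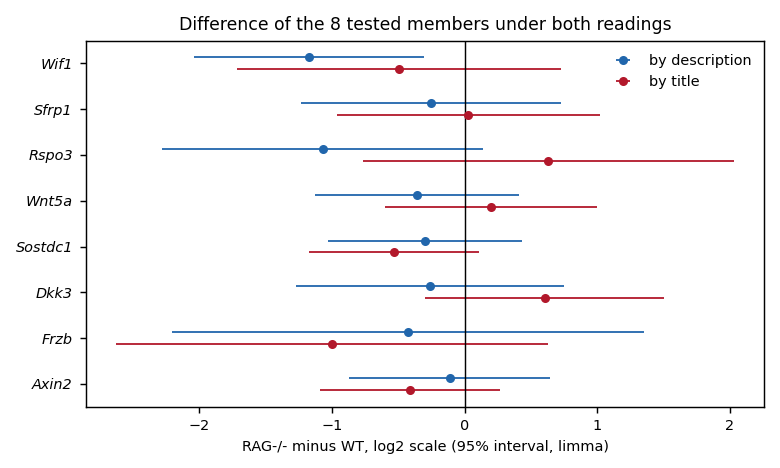
Difference, RAG-/- minus WT, of the 8 tested members with 95% intervals from limma, by description (blue) and by title (red). The blue interval of Wif1 lies below 0 before adjustment over all probe sets, from -2.04 to -0.30, and all other intervals include 0.

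Wnt5a, a ligand that signals mostly without beta-catenin, through Ror2 and Frizzled receptors, was the only Wnt ligand among the members. Its brightest probe set measured 9.05, 8.62 and 8.80 in WT replicates 1 to 3 and 8.21, 9.00 and 8.18 in RAG-/- replicates 1 to 3. RAG-/- replicates 1 and 3 lay below all WT arrays and replicate 2 within them, so the groups overlapped. RAG-/- replicates 1 and 3 were also the arrays lowest in Xist, whose part in this was not tested. The difference was -0.36 (95% interval -1.13 to 0.41, limma adjusted p = 1) by description and 0.20 by title. Without single arrays it ran from -0.63, without RAG-/- replicate 2, to -0.21, without RAG-/- replicate 3, by description. By title it ran from 0.034, without RAG-/- replicate 1, to 0.48, without RAG-/- replicate 3. Wnt5a had the narrowest range of the members, 0.87 log2 units over the 6 arrays, where the median gene spanned 1.08. The second probe set above the filter differed by -0.42 and -0.28 under these readings, so the sign by title depended on the probe set.

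Wif1 encodes a secreted protein that binds Wnts through its WIF domain and keeps them from their receptors. It measured 6.83, 7.67 and 7.56 in WT and 5.82, 6.09 and 6.64 in RAG-/-, on its only probe set. All 3 RAG-/- arrays lay below all 3 WT arrays, the nearest being WT replicate 1 and RAG-/- replicate 3. Group means were 7.36 ± 0.45 and 6.18 ± 0.42 (SD, n = 3), a difference of -1.17 (SE 0.38), or 2.26-fold on the scale of intensity + 16. Before adjustment p was 0.0143, and limma's adjusted p was 1. Of all genes tested, 1.41% had RAG-/- arrays that all lay below the WT arrays by description, and Wif1 was the only such member of the 8. The pairs differed by -1.02, -1.59 and -0.91, and 2 of the 8 members, Wif1 and Rspo3, were lower in RAG-/- in all 3 pairs, beside 11.3% of genes. By title the groups overlapped, as they did for all 8 tested members, where 2.53% of genes were lower and 2.2% higher without overlap, and the difference was -0.49 (95% interval -1.71 to 0.73, limma adjusted p = 1). With the pair as a block limma's unadjusted p was 0.00656 by description and 0.362 by title. The adjusted p of that fit was 1 by description and 0.926 by title. Leaving out single arrays gave -1.42 to -0.98 by description and -1.08 to -0.16 by title. By title, omission of WT replicate 2 gave -0.16, of WT replicate 3 -0.23, of RAG-/- replicate 2 -0.28 and of RAG-/- replicate 1 -1.08. The value by title was -1.20 without pair 1 and -0.0099 with array weights.

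Sfrp1, Sfrp2 and Frzb encode secreted Frizzled-related proteins, which carry the Wnt-binding domain of the receptors without the membrane part. Sfrp1 had 5 probe sets above the filter. The brightest measured 10.64, 10.19 and 10.94 in WT and 10.22, 9.62 and 11.17 in RAG-/-. RAG-/- replicate 3 was the highest array and replicate 2 the lowest, so the RAG-/- group spanned the whole WT range. The difference was -0.25 (95% interval -1.23 to 0.72, limma adjusted p = 1) by description and 0.03 by title.

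The other Sfrp1 probe sets differed from it by title. Their differences by description lay between -0.53 and -0.15, all of the same sign. By title they lay between -0.997 and -0.08. The second brightest measured 9.64, 10.62 and 10.58 in WT and 10.29, 10.02 and 9.79 in RAG-/-. In it the arrays titled RAG, WT replicate 1 and RAG-/- replicates 2 and 3, all lay below the rest, by -0.68 on average (95% interval -1.28 to -0.07, unadjusted p = 0.0327, limma adjusted p = 1). Of all probe sets tested, 2.66% were lower without overlap by title. Over the 6 arrays this probe set and the brightest differed by a root mean square of 0.68 once each was centred on its mean, and the third brightest differed from the brightest by 0.30. Which Sfrp1 transcript each reports is not given in the sources used here.

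Frzb had the widest range of all members, 2.85 log2 units. It measured 7.48, 7.20 and 6.03 in WT and 8.33, 5.61 and 5.48 in RAG-/-. Both arrays of pair 1 were high and both of pair 3 low, while those of pair 2 were far apart. The other Frzb probe set, below the filter, was likewise highest in RAG-/- replicate 1 (6.54), followed by WT replicate 1 (5.46), and at most 4.66 in the others. The difference of the brighter one was -0.43 by description (95% interval -2.20 to 1.35) and -0.997 by title (95% interval -2.63 to 0.63), each with a limma adjusted p of 1. With the pair as a block the unadjusted p by title was 0.0191 and the adjusted p 0.926. The difference by description turned positive, to 0.072 and 0.0046, when RAG-/- replicate 3 or 2 was left out, while omission of RAG-/- replicate 1 gave -1.35 and of WT replicate 1 gave -0.14. By title it ran from -1.63 without WT replicate 1 to -0.43 without RAG-/- replicate 1.

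Sfrp2 was dim on its only probe set, with 6.25, 5.24 and 6.46 in WT and 5.64, 6.93 and 5.56 in RAG-/-. The highest and the lowest array were the arrays of pair 2, RAG-/- replicate 2 and WT replicate 2. The means differed by 0.06 by description and 0.47 by title, against SDs of 0.65 and 0.77 in the groups by description. RAG-/- replicate 2 was also the array with the highest neuronal mean.

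Dkk2 and Sostdc1 belong to the antagonists that act at or near the co-receptors. Dkk2 binds Lrp6 together with Kremen, and Dkk3 is a divergent relative of Dkk2 whose role in Wnt signalling is less settled. Dkk2 measured 7.01, 4.56 and 5.20 in WT and 6.18, 4.25 and 5.996 in RAG-/-, mostly below the filter of 6.06. Only the arrays of pair 1 lay above it, and both arrays of pair 2 were the lowest. The differences of -0.11 by description and 0.44 by title were smaller than the SDs of 1.27 and 1.06 in the groups by description.

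Dkk3 was higher in WT replicate 1 than in any other array, at 10.22 against 8.51 and 9.06 in the other WT arrays and 8.92, 9.10 and 8.98 in RAG-/-. The RAG-/- arrays agreed within an SD of 0.09, while WT had an SD of 0.87. The difference was -0.26 (95% interval -1.27 to 0.75, limma adjusted p = 1) by description and 0.60 by title. The sign by description rested on 1 array, since without WT replicate 1 the difference was 0.21. By title it was 0.21 without that array too, and 1.24 with array weights (adjusted p = 0.614). The second Dkk3 probe set was also highest in WT replicate 1, at 8.73, and between 6.81 and 7.72 elsewhere.

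Sostdc1 encodes a secreted protein that binds BMPs and Lrp5 or Lrp6, and it was the brightest member on both of its probe sets. It measured 13.93, 14.07 and 13.59 in WT and 14.27, 12.96 and 13.46 in RAG-/-. RAG-/- replicate 1 was the highest array and RAG-/- replicate 2 the lowest. The second probe set gave the same highest and lowest arrays, and the centred profiles of the pair differed by a root mean square of only 0.08. The difference was -0.30 (95% interval -1.03 to 0.43) by description and -0.53 (95% interval -1.17 to 0.11) by title, each with a limma adjusted p of 1. Without RAG-/- replicate 2 it was -0.0031 by description and -0.29 by title. With the pair as a block the unadjusted p by title was 0.0291, and the adjusted p 0.926.

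Rspo3 encodes an R-spondin, which binds Lgr receptors and the ligases Znrf3 and Rnf43 and so keeps Frizzled at the surface. It measured 10.25, 8.32 and 8.90 in WT and 7.69, 7.84 and 8.72 in RAG-/-. WT replicate 1 stood above all other arrays and RAG-/- replicate 1, its partner, was the lowest of the 6. The difference by description was -1.07 (SE 0.53, 95% interval -2.28 to 0.14, limma adjusted p = 1) and by title 0.63 (95% interval -0.77 to 2.03, adjusted p = 1), so the sign depended on the reading. In pair 1 the array described as RAG-/- differed from its partner by -2.55, and in pairs 2 and 3 by -0.48 and -0.18. Without WT replicate 1 the difference was -0.53 by description and -0.026 by title. With array weights it was -1.55 and 1.84 (limma adjusted p = 1 and 0.614), and as the mean of both probe sets -0.31 and 0.77. The other Rspo3 probe set was below the filter and varied differently, with 4.24 in WT replicate 3 and between 5.53 and 6.21 elsewhere.

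Axin2 is a scaffold of the complex that degrades beta-catenin, and its transcription is induced by beta-catenin, which makes it a common readout of canonical signalling. It measured 9.22, 9.77 and 10.20 in WT and 9.67, 9.44 and 9.75 in RAG-/-. The lowest and the highest arrays were both WT, so the RAG-/- values lay inside the WT range. The difference was -0.11 (95% interval -0.87 to 0.65) by description and -0.41 (95% interval -1.09 to 0.26) by title, each with a limma adjusted p of 1. Without WT replicate 3 it was 0.12 by description, with array weights 0.11, and as the mean of both probe sets -0.50. The other Axin2 probe set lay below the filter, between 4.42 and 6.21, and was highest in WT replicate 3 too.

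The members were then set against the epithelial and stromal markers, array by array. For each gene the range over the 6 arrays was taken before and after the mean of a marker list was subtracted from each array. A gene that varied along with the list would have a narrower range. A narrower range alone does not show this, since it rests on the highest and lowest arrays only. The share of all genes narrowed is therefore given beside the counts. A list with a wide range of its own, such as the stromal one, cannot narrow a gene of small range. After the epithelial mean was subtracted, 3 of the 8 tested members (Sfrp1, Sostdc1 and Frzb) had a narrower range, where 25.8% of the 13537 genes tested and 29.4% of those with a range over 2 log2 units had. After the stromal mean was subtracted, 2 of 8 had (Rspo3 and Frzb), where 7.15% of the genes tested and 27.4% of the 1939 with a range over 2 had. Both of these members had a range over 2, a limit chosen after seeing the data. Of the members below the filter, Dkk2 was narrowed by both lists and Sfrp2 by neither. The endothelial and the mural mean each narrowed 4 of 8, where 13.8% and 15.3% of the genes tested were narrowed. They were Rspo3, Frzb, Dkk3 and Sostdc1 for both lists, all with a range above the median gene's 1.08. The share among genes of similar range was not computed for these lists.

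**Figure D3:**
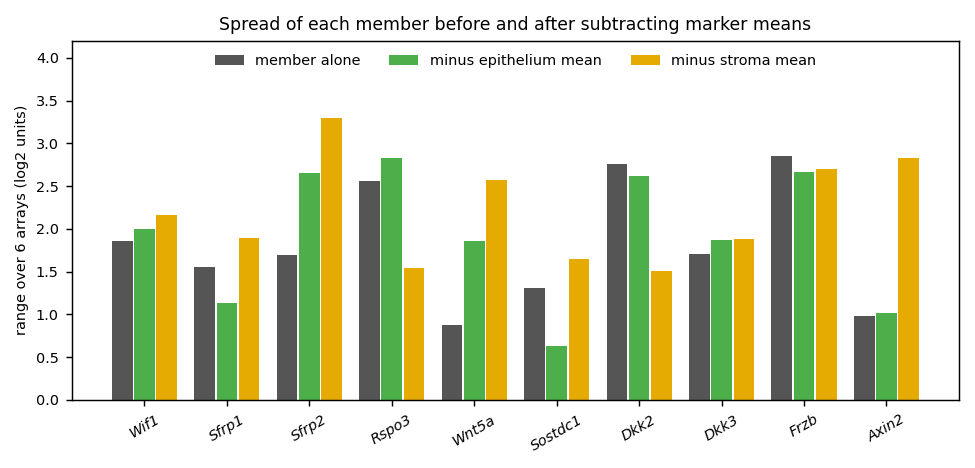
Range over the 6 arrays, in log2 units, of each member at its brightest probe set (grey), after the epithelium mean of each array was subtracted (green) and after the stroma mean was subtracted (yellow). Sostdc1 falls from 1.31 to 0.63 with the epithelium mean, and Rspo3 from 2.55 to 1.54 with the stroma mean.

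Sostdc1 was narrowed in range by the epithelial mean, and less by the endothelial one. Its range was 1.31 log2 units alone and 0.63 after the epithelial mean was subtracted. It was 0.87 after the endothelial, 1.25 after the mural and 1.65 after the stromal mean was subtracted. The stromal mean, with a range of 2.62, could hardly have narrowed it. Both the gene and the epithelial list were highest in RAG-/- replicate 1 and lowest in RAG-/- replicate 2. Without RAG-/- replicate 2 the range was 0.82 alone, 0.63 after subtraction of the epithelial mean and 0.87 after that of the endothelial mean. Sfrp1 went from 1.55 to 1.13 with the epithelial mean, but without RAG-/- replicate 2 from 0.98 to 1.13, so its narrowing rested on that array. Among the 10 marker lists, Sfrp1 was narrowest, at 0.52, after the mean of 8 ependymal genes was subtracted, where 26.3% of the genes tested were narrowed. That list was picked among 10 after seeing the values.

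Rspo3 was narrowed in range by the stromal mean, and nearly as much by the mural one. The stromal mean also narrowed 27.4% of all genes with a range over 2. Its range of 2.55 became 1.54 after the stromal mean was subtracted, 1.66 after the mural, 2.08 after the endothelial and 2.82 after the epithelial mean was. Rspo3 and the stromal mean were highest in WT replicate 1. In RAG-/- replicate 1, where Rspo3 was lowest, the stromal mean was 9.97, in the middle of its range. Dkk2 went from 2.75 to 1.51 with the stromal mean, and was lowest in the same array as the list, RAG-/- replicate 2. Frzb changed little, from 2.85 to 2.70, and was narrowed most, to 2.10, by the endothelial list. Dkk2 was narrowest, at 1.38, with the macrophage list (6.53% of the genes tested were narrowed by it). Dkk3 was not narrowed by the stromal mean over all arrays (1.70 and 1.88), but without RAG-/- replicate 2 that mean took its range from 1.70 to 0.51. The mural mean took it to 0.95 over all arrays and to 0.74 without RAG-/- replicate 2.

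**Figure D4:**
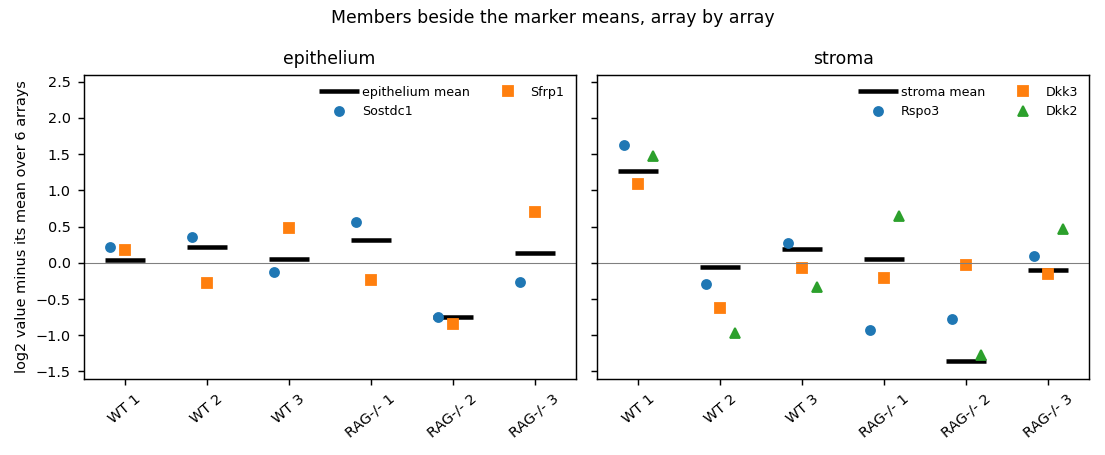
Level of selected members minus their own mean over the 6 arrays (symbols), beside the epithelium mean (left) and the stroma mean (right) treated the same way (black bars), in log2 units. Sostdc1 and the epithelium bar share their highest array, RAG-/- replicate 1, and their lowest, RAG-/- replicate 2; Rspo3, Dkk3 and Dkk2 are high with the stroma bar in WT replicate 1, while RAG-/- replicate 2 parts them, with Dkk2 near the bar and Dkk3 near 0.

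Wif1, Sfrp2, Wnt5a and Axin2 were narrowed by neither list. The stromal mean itself spanned 2.62 log2 units, so it could not have narrowed Wnt5a or Axin2, whose own ranges are small. Wif1 went from 1.86 to 1.998 and 2.16, Axin2 from 0.98 to 1.01 and 2.83, Wnt5a from 0.87 to 1.86 and 2.57, and Sfrp2 from 1.69 to 2.66 and 3.30, for the epithelial and stromal mean in turn. The marker differences within pairs 1, 2 and 3, RAG-/- minus WT by description, were 0.27, -0.96 and 0.07 for the epithelium and -1.22, -1.29 and -0.29 for the stroma. For the oligodendrocyte list they were -0.47, 1.43 and 1.87, and for the neuronal list 0.07, 1.08 and -0.60. Those of Wif1 were -1.02, -1.59 and -0.91.

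The genes whose centred profile was nearest to the most variable members were named by their root mean square distance over the 6 arrays, in log2 units. For Rspo3 these were Ccr9 (0.21), Bnc2 (0.25) and Tbx15 (0.27). For Dkk2 they were Dct (0.17), Isg20 (0.20) and Ifitm6 (0.24). For Frzb the nearest were further off, with Fcgrt at 0.40, Fcgr1 at 0.42 and Emilin1 at 0.43. All nearest genes of Rspo3 and Dkk2 were highest in WT replicate 1, as these members were. They were picked among all genes tested for nearness over the same 6 arrays. The shared highest array therefore follows largely from that choice.

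The rest of the pathway was read from lists chosen by role. Of 18 other Wnt ligands, 9 were above the filter. By description 0 of these passed the test, and 7 were lower and 2 higher, with a median of -0.34; by title 3 were lower and 6 higher, with a median of 0.11. Wnt9a differed by -0.69 and Wnt6 by -0.45 by description, and Wnt4 by 0.74 and Wnt8b by 0.82 by title. Of 14 other secreted modulators and proteins of Wnt secretion, 8 were above the filter and 0 passed under either reading, with medians of 0.11 and -0.08. Dkk1, the founding Dkk antagonist, differed by 0.56 and Sfrp4 by -0.42 by description. By title Notum, an enzyme that removes the lipid from Wnts, differed by 0.82 and Wls, the carrier that brings Wnts to the cell surface, by -0.54.

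Of 25 receptors and their partners, 22 were above the filter and 0 passed under either reading, with 15 lower by description and 13 by title. Fzd7 differed by -0.76 by description (unadjusted p = 0.0304, limma adjusted p = 1), and its RAG-/- arrays all lay below the WT arrays, as for 1.41% of the genes tested. By title it differed by -0.57 and the groups overlapped. Lgr5, an R-spondin receptor, differed by 0.91 by description. By title Fzd5 differed by -0.70 and Fzd3 by 0.56, both without overlap (2.53% of genes were lower and 2.2% higher in this way). Of 19 intracellular components 17 were above the filter, with medians of 0.00 and 0.03 under these readings and 0 passing. Lef1 differed by -0.66 and Apc, a scaffold of the beta-catenin destruction complex, by 0.41 by description, and Pygo2 by -0.60 and Btrc by 0.39 by title. By description Apc was higher in all RAG-/- arrays than in any WT array, and so was Ctnnbip1, an inhibitor of beta-catenin, at 0.27, chosen after its values were seen (1.69% of the genes tested were higher in this way). By title the groups of Pygo2 did not overlap. Of 14 known target genes, which share some members with the other lists, 11 were above the filter and 0 passed, with a median of -0.27 by description and 0.15 by title. Ccnd1, a cyclin of the G1 phase, differed by 0.55 by title, without overlap. Axin2 and these targets thus gave no call in either direction under either reading.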

How the data were processed

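RNA from 6 preparations had been measured on single-colour arrays, and the authors deposited linear intensity values of 45101 probe sets. How these were computed was not given in the sources used here. In the array where it was computed, the mean was 500 with the lowest and highest 2% of probe sets set aside. This points to a scaling by the authors, which was not checked in the other arrays. Scaling leaves dim probe sets dependent on the background estimate, and no detection calls were used here. After removal of 64 control probe sets, log2(intensity + 16) was taken, which understates changes of dim genes, followed by quantile normalization, since the 75th percentiles spanned 0.232 log2 units. Probe sets in the lowest 40% of mean were left out, which left 27022. Symbols came from the platform annotation (34945 probe sets with 1 symbol, 932 with several and 9160 unnamed here), updated by gene number where the RefSeq table of GRCm38.p6 held it (34741). The brightest probe set stood for a gene.

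Differences were tested with limma 3.58.1 under R 4.3.3 (lmFit, then eBayes with trend), by description and by title. Tests were two-sided, and p-values were adjusted by Benjamini-Hochberg over all probe sets, with a threshold of 0.05. The fit was tested on simulated data. Within the pairs joined by the title codes, deviations from group means had correlations of 0.29, 0.39 and 0.58, each above the limit of 0.1, against -0.42 to 0.0094 across pairs. A blocked fit on the pairs was therefore made beside the one without. Deviations within a group cancel, so high correlations within pairs lower those across pairs, which are no separate contrast. Alternatives were other pseudocounts, scalings, no filter, the block, array weights, the mean over a gene's probe sets, and leaving out each array or pair 1. Named were all members, the 2 genes of each pathway list with the smallest p under each reading, and the 3 nearest profiles of the 3 most variable members. The members and lists were chosen with earlier results of these data known.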

Additional observations from a re-analysis of the deposited data

How the results depend on the processing

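No member passed the threshold under any alternative run, by description or by title (limma, adjusted p at least 0.614, reached by title with array weights), and with the pair as a block no call among the members changed. Among all probe sets the count of 0 by description was between 0 and 4 without single arrays. The 4, without RAG-/- replicate 2, were Xist, at -4.83, and 3 unnamed probe sets, at 4.82 to 7.92. These 3 measured 9.73 to 12.51 in RAG-/- replicates 1 and 3, where Xist was low, and 4.07 to 5.60 in the other arrays. The labels do not give sex, and whether these arrays differ in it was not tested. By title the count of 0 stayed at 0 without single arrays, was 1 with the pair as a replicate block (Pttg1) and 2 with array weights (both Pttg1). The 8 members lower by description were 5 with array weights and between 6 and 8 without single arrays. The 4 lower by title were 7 with pair 1 left out and between 4 and 6 without single arrays.

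Signs turned as follows. By description with array weights Sostdc1 was at 0.0091, Frzb at 0.19 and Axin2 at 0.11, and with pair 1 left out Dkk3 was at 0.25. Without single arrays Dkk3 ran from -0.64 to 0.21, Axin2 from -0.37 to 0.12, Sfrp1 from -0.66 to 0.11 and Frzb from -1.35 to 0.072. By title with pair 1 left out Sfrp1 was at -0.17, Rspo3 at -0.33 and Wnt5a at -0.12, and Sfrp1 was at -0.45 as the mean of its probe sets. Without single arrays Sfrp1 ran from -0.31 to 0.46 and Rspo3 from -0.026 to 1.19. Of the members below the filter, Dkk2 ran from -0.63 to 0.60 by description and from -0.19 to 1.19 by title, and Sfrp2 from -0.38 to 0.31 by description. The cause was not tested. With 6 arrays in 3 pairs the 95% intervals of the tested members by description were at least 1.47 log2 units wide, before any adjustment.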
